A study of Mus musculus with 28 samples.

Results

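The 10 genes described here form the core of cytosolic RNA and DNA sensing: Ddx58, Ifih1, Dhx58, Mavs, Mb21d1, Tmem173, Tbk1, Ikbke, Traf3 and Azi2. They were chosen by name, as the RIG-I-like receptors, the STING axis and the kinases and adaptors that both arms share, out of 24421 genes counted in each library. The choice was made with earlier results of these data known. All 10 were found, and all 10 passed the filter on low counts, which 13159 genes passed. Bulk RNA-seq was made from dendritic cells sorted from the spleens of untreated C57Bl/6 mice aged 6 to 12 weeks. The plasmacytoid dendritic cells called pDC_TG (4 libraries) are from mice of the genotype Irf8fl/fl Itgax-cre: both copies of Irf8 are flanked by loxP sites, and regulatory sequence of Itgax, which encodes CD11c, drives Cre. The type 1 conventional dendritic cells, sorted as CD24+ (cDC1_WT, 8 libraries), type 2 conventional dendritic cells, sorted as CD172a+ (cDC2_WT, 8 libraries), and plasmacytoid dendritic cells (pDC_WT, 8 libraries) came from Irf8fl/fl mice, so every group carries the loxP-flanked Irf8. CD11c is not restricted to pDC, so other CD11c-expressing cells of the pDC_TG mice could carry the deletion as well. The labels number the source mice within each group, but do not say whether mice were pooled or whether same-numbered libraries share animals, so p-values measure only the spread between these libraries.

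RIG-I (Ddx58) and MDA5 (Ifih1) bind foreign or misplaced RNA in the cytosol and signal through MAVS on the mitochondrial surface, and LGP2 (Dhx58) tunes their activity. Cytosolic DNA is bound by cGAS (Mb21d1), whose cyclic dinucleotide product activates STING (Tmem173) on the endoplasmic reticulum. Both arms meet at the kinases TBK1 and IKK epsilon (Ikbke), assembled with TRAF3 and adaptors such as AZI2, which phosphorylate IRF3 and IRF7 and so induce type I interferon. pDC are known for sensing nucleic acids mainly through endosomal Toll-like receptors, and IRF8 is a transcription factor of pDC and cDC1.

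Libraries held 17299285 to 30787679 gene counts. Irf8 averaged 1461 ± 257 CPM (read counts scaled to library size by TMM) in pDC_TG and 6145 ± 459 CPM in pDC_WT, a log2 fold change of -2.07 (adjusted p = 4.43e-13). The summed level of 10 pDC markers was 8542 to 11700 CPM in pDC_TG libraries, 92.8 to 120 CPM in cDC1_WT, 107 to 132 CPM in cDC2_WT and 9353 to 12470 CPM in pDC_WT. The 8 cDC1 markers summed to 81.6 to 93.7 CPM in pDC_TG, with Batf3 at 0, to 5223 to 6623 CPM in cDC1_WT, 136 to 198 CPM in cDC2_WT and 151 to 238 CPM in pDC_WT. The 8 cDC2 markers, some of which pDC also express, summed to 1464 to 1726 CPM in pDC_TG, 29.4 to 52.6 CPM in cDC1_WT, 2732 to 3249 CPM in cDC2_WT and 2024 to 2836 CPM in pDC_WT. The 9 neutrophil markers summed to 196 CPM in pDC_TG replicate 4 and to 0.230 to 4.59 CPM in the other pDC_TG libraries, against 0.196 to 2.62 CPM in pDC_WT. The sum of 8 T and NK cell markers was 20.4 to 29.0 CPM in pDC_TG, where all 8 were detected, 2.26 to 12.4 CPM in cDC1_WT, 12.3 to 29.7 CPM in cDC2_WT and 3.19 to 12.4 CPM in pDC_WT, where Ncr1 and Klrb1c were at 0. In sorted bulk samples, fewer cells that express a gene and less RNA per cell cannot be told apart.

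The main comparison, pDC_TG with pDC_WT, asks what differs in pDC when Cre acts on the loxP-flanked Irf8. No group carries Cre without loxP-flanked Irf8, so effects of Cre itself and of the deletion cannot be told apart. The 3 RNA sensors and the DNA sensor were higher in pDC_TG, while the adaptors, STING and the kinases were not called. Of the 10 genes, 4 were higher, against 7.72% of all genes tested, and 0 were lower, against 7.04% of all genes tested, by the quasi-likelihood test of edgeR at a Benjamini-Hochberg adjusted p under 0.05 over all 13159 genes. At an unadjusted p under 0.05, 1 gene, Traf3, was lower, and DESeq2's Wald test called 0 lower. The median log2 fold change of the 10 genes was 0.18, against 0 for all genes tested. Without pDC_TG replicate 4, the library with the most neutrophil transcripts, the counts were also 4 higher and 0 lower. In a fit of the 2 pDC groups alone, 3 were higher and 0 lower, and Mb21d1 was no longer called (adjusted p = 0.244).

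**Figure D1:**
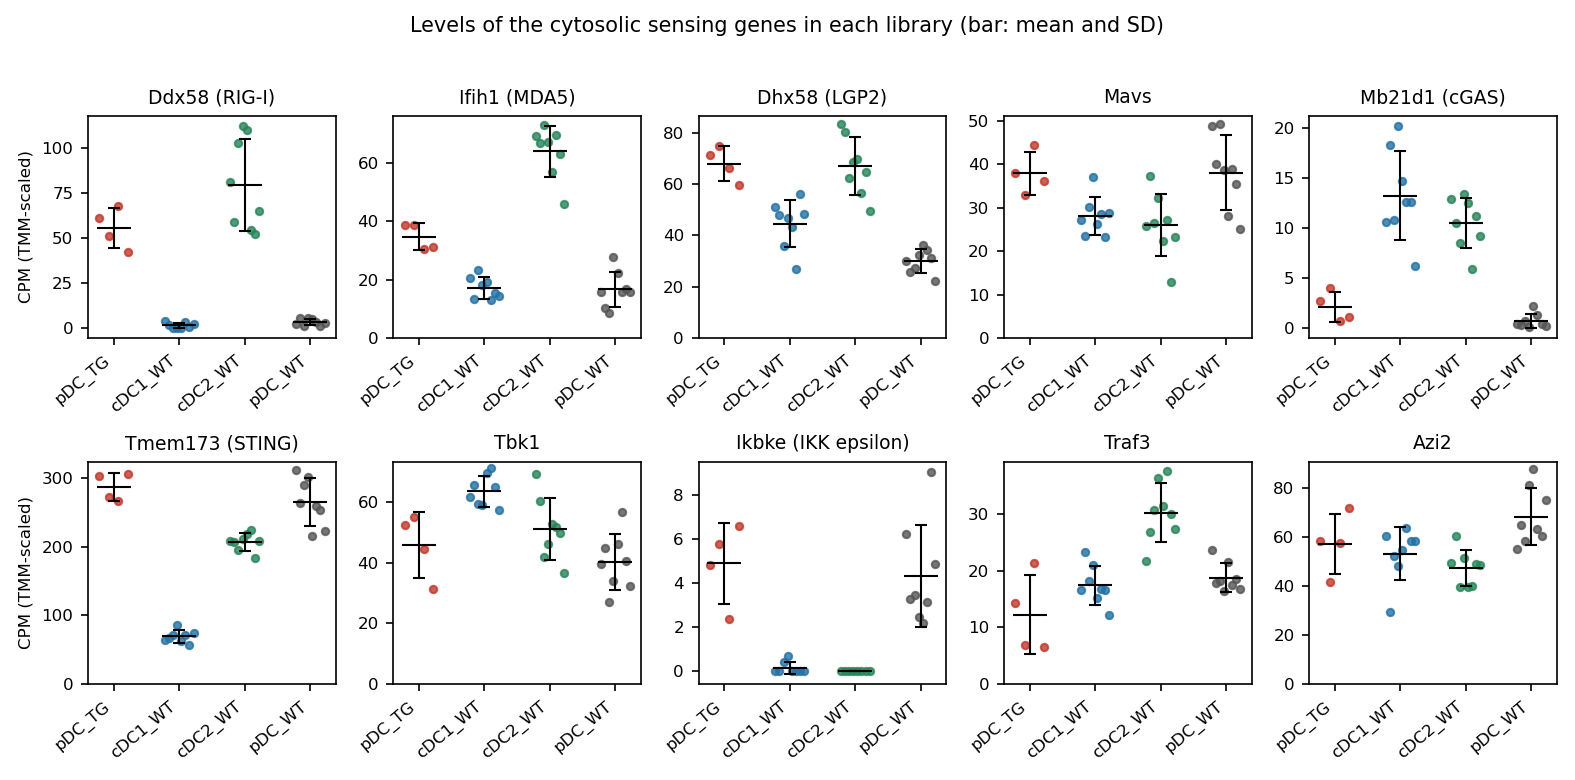
Level of each sensing gene in CPM (linear axis from 0, TMM-scaled) in the 4 pDC_TG, 8 cDC1_WT, 8 cDC2_WT and 8 pDC_WT libraries; points are libraries, and the bar with whiskers is the mean ± SD. Ddx58 lies between 41.9 and 67.8 CPM in pDC_TG and at or under 5.67 CPM in pDC_WT, while Mavs, Tmem173 and Tbk1 overlap between these groups.

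Ddx58 encodes RIG-I, which recognises short double-stranded RNA with a triphosphate end. It lies on the minus strand at chr4:40203773-40239828 (GRCm38, protein coding). Its level was 61.0, 51.2, 67.8 and 41.9 CPM in pDC_TG replicates 1 to 4. The lowest, median and highest values were 0, 1.12 and 3.76 CPM in cDC1_WT, 52.4, 73.0 and 112 CPM in cDC2_WT, and 1.08, 3.20 and 5.67 CPM in pDC_WT. The libraries of pDC_TG and pDC_WT did not overlap, and the lowest pDC_TG value was that of replicate 4. The difference was a log2 fold change of 4.04 (SE 0.54, adjusted p = 2.61e-06), or 16.4-fold between the mean levels. In the order of means, cDC2_WT (79.5 ± 25.5 CPM) stood above pDC_TG (55.5 ± 11.3), pDC_WT (3.37 ± 1.83) and cDC1_WT (1.45 ± 1.51 CPM), all SD. The libraries of cDC2_WT and pDC_TG overlapped and were not called different (adjusted p = 0.465). Those of pDC_WT and cDC1_WT also overlapped, and their call was lost in several alternative fits given below.

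The DNA around the Ddx58 start is shown because it holds a match to the core of the interferon-stimulated response element, the site bound by interferon-activated and other IRF factors. The motif was searched as GAAANNGAA on both strands, in RefSeq windows from 250 bases before to 50 bases after each annotated start (GRCm38.p6). Capitals mark the match, which reads on the opposite strand. The stretch runs from 100 bases upstream to 20 bases downstream of the start at chr4:40239806-40239925, minus strand.
Ddx58: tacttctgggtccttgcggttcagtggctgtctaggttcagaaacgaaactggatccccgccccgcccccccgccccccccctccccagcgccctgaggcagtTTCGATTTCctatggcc

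Ifih1 encodes MDA5, which binds long double-stranded RNA, and lies on the minus strand at chr2:62595798-62646255. Its level was 38.8, 38.6, 30.5 and 31.2 CPM in pDC_TG. Lowest, median and highest were 13.2, 16.8 and 23.4 CPM in cDC1_WT, 45.8, 67.0 and 73.0 CPM in cDC2_WT, and 8.78, 15.9 and 27.7 CPM in pDC_WT. All 4 pDC_TG libraries stood above all 8 of pDC_WT. The log2 fold change was 1.06 (SE 0.20, adjusted p = 0.000349). The order of means was cDC2_WT (64.0 ± 8.78 CPM), pDC_TG (34.8 ± 4.56), cDC1_WT (17.3 ± 3.72) and pDC_WT (16.7 ± 6.10 CPM), and the last pair did not differ beyond the spread.

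Ifih1 also held the GAAANNGAA core, at 2 places that do not overlap. The first stretch covers the 150 bases before the start at chr2:62646256-62646405, minus strand, with a match on the opposite strand that begins 112 bases upstream. The second covers bases 20 to 49 downstream at chr2:62646207-62646236, with a match on the gene's own strand.
Ifih1 upstream: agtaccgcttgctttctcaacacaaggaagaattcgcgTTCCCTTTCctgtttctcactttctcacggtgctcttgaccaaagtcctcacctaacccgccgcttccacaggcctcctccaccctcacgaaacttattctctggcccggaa
Ifih1 downstream: ggagaagagaatcGAAACAGAAaccgatct
Of the 10 genes, 8 had a RefSeq window, and the core was found in the windows of Ddx58 and Ifih1 but not in those of Mavs, Mb21d1, Tbk1, Ikbke, Traf3 and Azi2. For scale, 8.56% of 32851 windows of all genes held it. The ETS-IRF composite GGAANNGAA was found in 0 of the 8 windows and in 8.24% of all windows.

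Dhx58 encodes LGP2, a RIG-I-like receptor without the signalling domain, and lies at chr11:100694884-100704271 on the minus strand. Of its exonic bases, 4.31% are shared with the antisense gene Dhx58os, and the library kit does not mark strand. It stood at 71.2, 74.9, 66.1 and 59.6 CPM in pDC_TG. Among the WT groups, the lowest, median and highest values were 27.0, 47.3 and 56.0 CPM in cDC1_WT, 49.5, 66.6 and 83.5 CPM in cDC2_WT, and 22.2, 30.7 and 36.2 CPM in pDC_WT. The pDC_TG and pDC_WT libraries did not overlap, and the log2 fold change was 1.18 (SE 0.15, adjusted p = 8.33e-07). Its order was pDC_TG (68.0 ± 6.65 CPM), cDC2_WT (66.9 ± 11.3), cDC1_WT (44.5 ± 9.19) and pDC_WT (29.9 ± 4.62 CPM), and pDC_TG and cDC2_WT overlapped.

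For Ddx58, Ifih1 and Dhx58, an exact two-sided permutation test between pDC_TG and pDC_WT gave p = 0.00202, the smallest its 495 splits can give. The calls of these 3 sensors were kept in every alternative fit. The T and NK cell marker sum was higher in pDC_TG in the same comparison, and its part in this result, and in those of Ddx60, Oas3 and the lists below, was not tested.

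Mavs encodes the mitochondrial adaptor of RIG-I and MDA5 and lies on the plus strand at chr2:131234063-131248025. It stood at 38.0, 33.0, 44.5 and 36.2 CPM in pDC_TG. The lowest, median and highest values were 23.4, 27.95 and 37.1 CPM in cDC1_WT, 12.99, 26.1 and 37.3 CPM in cDC2_WT, and 25.2, 38.9 and 49.4 CPM in pDC_WT. The pDC_TG values lay inside the pDC_WT range. The log2 fold change was -0.01, with a 95% interval of -0.40 to 0.39. Its means were 37.9 ± 4.86 CPM in pDC_TG, 28.2 ± 4.39 CPM in cDC1_WT, 26.0 ± 7.14 CPM in cDC2_WT and 38.1 ± 8.63 CPM in pDC_WT.

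Mb21d1, named Cgas in the annotation, encodes the DNA sensor cGAS and lies on the minus strand at chr9:78430526-78443237. The annotated gene Gm8093 shares 4.87% of its exonic bases. It was low in pDC: 2.65, 3.97, 0.699 and 1.05 CPM in pDC_TG, or 228 counts over the group. Lowest, median and highest were 6.15, 12.6 and 20.2 CPM in cDC1_WT, 5.91, 10.8 and 13.3 CPM in cDC2_WT, and 0.0734, 0.388 and 2.18 CPM in pDC_WT, the last from 133 counts over the group. Replicates 1 and 2 of pDC_TG stood above all pDC_WT libraries, while replicates 3 and 4 lay within their range. The log2 fold change was 1.60 (SE 0.51, adjusted p = 0.0290). Without pDC_TG replicate 2 it was 1.09 (adjusted p = 0.225), without pDC_TG replicate 1 it was 1.47 (adjusted p = 0.0830), and in a fit of the 2 pDC groups alone it was 1.59 (adjusted p = 0.244). The call was also lost, at adjusted p of 0.05001 to 0.0530, without pDC_WT replicate 2, 7 or 8, and with WT replicates 5 to 8 only (1.03, adjusted p = 0.369).

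Tmem173 encodes STING and lies on the minus strand at chr18:35733679-35740554. It stood at 304, 273, 267 and 307 CPM in pDC_TG. Among the WT groups, the lowest, median and highest values were 56.7, 69.7 and 86.1 CPM in cDC1_WT, 183, 209 and 225 CPM in cDC2_WT, and 215, 262 and 312 CPM in pDC_WT. All pDC_TG values lay inside the pDC_WT range. The log2 fold change was 0.12, with a 95% interval of -0.08 to 0.32 (adjusted p = 0.528). Its order was pDC_TG (288 ± 20.5 CPM), pDC_WT (265 ± 35.0), cDC2_WT (208 ± 13.02) and cDC1_WT (69.4 ± 8.90 CPM), and the first pair did not differ beyond the spread.

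Tbk1 encodes the kinase on which both arms converge and lies on the minus strand at chr10:121546455-121586787. It stood at 52.4, 55.2, 44.3 and 31.2 CPM in pDC_TG. The lowest, median and highest values were 57.2, 63.2 and 71.1 CPM in cDC1_WT, 36.6, 50.8 and 69.3 CPM in cDC2_WT, and 27.1, 39.99 and 56.7 CPM in pDC_WT. The pDC groups overlapped throughout, with a log2 fold change of 0.19 and a 95% interval of -0.15 to 0.53. The order of means was cDC1_WT (63.5 ± 5.11 CPM), cDC2_WT (51.0 ± 10.3), pDC_TG (45.8 ± 10.7) and pDC_WT (40.1 ± 9.31 CPM), and no pair of neighbours in it was called.

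Ikbke encodes IKK epsilon, the inducible relative of TBK1, and lies on the minus strand at chr1:131254343-131279606. The annotated genes Gm28913 and Gm28914 share 2.48% of its exonic bases. It stood at 4.80, 5.79, 2.36 and 6.61 CPM in pDC_TG, or 556 counts over the group. In cDC1_WT it had 25 counts in all, from replicates 3 (9 counts) and 4 (16 counts), with 6 libraries at 0. Replicate 4 was also the cDC1_WT library with the most neutrophil transcripts, and their part was not tested. All 8 cDC2_WT libraries were at 0 counts, which allows a group level of up to 0.0157 CPM (3 counts over the group, counting error only). The lowest, median and highest values in pDC_WT were 2.18, 3.36 and 9.05 CPM, from 915 counts. The pDC groups overlapped, and their log2 fold change was 0.18, with a 95% interval of -1.75 to 2.103. This interval includes 2-fold differences in either direction.

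Traf3 encodes a ubiquitin ligase that links MAVS to the kinases, and lies on the plus strand at chr12:111166370-111267153. It stood at 14.2, 6.85, 21.3 and 6.61 CPM in pDC_TG. Lowest, median and highest were 12.1, 16.7 and 23.3 CPM in cDC1_WT, 21.8, 30.3 and 37.6 CPM in cDC2_WT, and 16.4, 18 and 23.6 CPM in pDC_WT. Replicates 1, 2 and 4 of pDC_TG lay below every pDC_WT library, and replicate 3 lay among them. The log2 fold change was -0.61 (95% interval -1.09 to -0.14, adjusted p = 0.0734), which is not a call. Without pDC_TG replicate 3 it was -1.02 with an adjusted p of 0.00203, and an exact two-sided permutation test with all libraries gave p = 0.0303, not adjusted. The order of means was cDC2_WT (30.2 ± 5.12 CPM), pDC_WT (18.8 ± 2.51), cDC1_WT (17.4 ± 3.44) and pDC_TG (12.2 ± 6.98 CPM), and no neighbours below cDC2_WT were called different.

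Azi2 encodes an adaptor that binds TBK1 and IKK epsilon, and lies on the plus strand at chr9:118040499-118069794. It stood at 58.2, 41.7, 57.5 and 71.7 CPM in pDC_TG. Among the WT groups, the lowest, median and highest values were 29.3, 56.6 and 63.8 CPM in cDC1_WT, 39.5, 48.8 and 60.4 CPM in cDC2_WT, and 55.0, 64.2 and 87.8 CPM in pDC_WT. The pDC groups overlapped, and the log2 fold change was -0.25, with a 95% interval of -0.59 to 0.09 (adjusted p = 0.373). Its order was pDC_WT (68.3 ± 11.8 CPM), pDC_TG (57.3 ± 12.3), cDC1_WT (53.2 ± 10.8) and cDC2_WT (47.3 ± 7.24 CPM), with no neighbours called different.

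**Figure D2:**
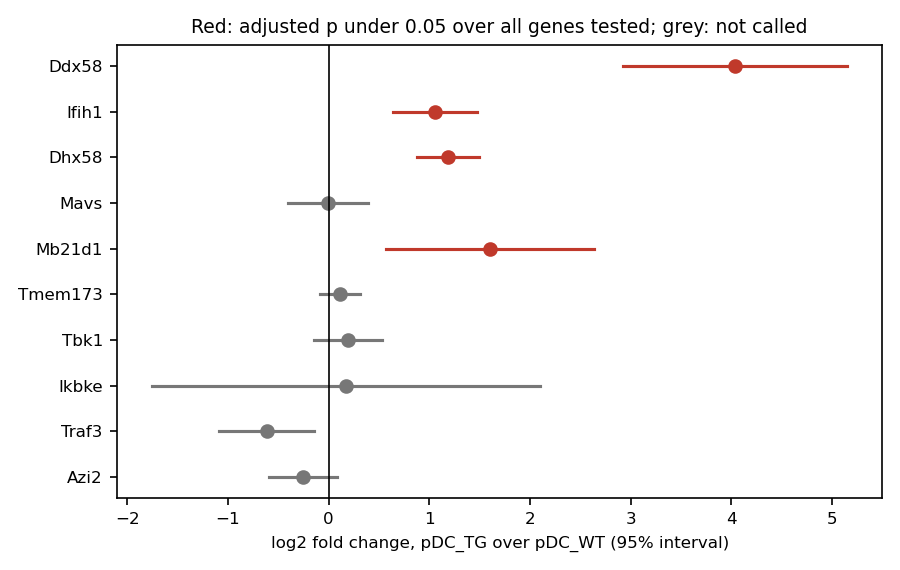
Log2 fold change of each sensing gene in pDC_TG (n = 4) over pDC_WT (n = 8); points are the fitted values, lines the 95% intervals, and red marks an adjusted p under 0.05 over all genes tested. Ddx58 stands at 4.04, Mb21d1 at 1.60, Dhx58 at 1.18 and Ifih1 at 1.06, all in red, and the other 6 are grey.

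Levels between genes were compared per kilobase of annotated exon, as mean CPM per kb. STING stood highest of the 10 genes in all 4 groups, at 105 CPM per kb in pDC_TG, 25.3 in cDC1_WT, 75.7 in cDC2_WT and 96.8 in pDC_WT. The lowest were Ikbke in both cDC groups, at 0.0150 CPM per kb in cDC1_WT and 0 in cDC2_WT, and Mb21d1 in pDC_WT, at 0.168 CPM per kb. In pDC_TG, Mb21d1 at 0.507 ± 0.367 and Ikbke at 0.542 ± 0.204 CPM per kb (SD) did not differ beyond their spread. Among the RNA sensors Dhx58 led in every group. In pDC_TG it stood at 20.8 CPM per kb, followed by Ddx58 at 7.87 and Ifih1 at 4.26. In pDC_WT the order was Dhx58 at 9.14, Ifih1 at 2.05 and Ddx58 at 0.479 CPM per kb.

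The balance of partners within a library was compared as a ratio. The log2 ratio of Ddx58 to Ifih1, each as CPM plus 1, averaged 0.64 ± 0.34 in pDC_TG, -3.12 ± 1.09 in cDC1_WT, 0.26 ± 0.48 in cDC2_WT and -2.07 ± 0.65 in pDC_WT (SD). This ratio, which is not scaled by gene length, was above 0 in every pDC_TG library and below 0 in every pDC_WT library. The added 1 pulls the ratios of cDC1_WT and pDC_WT, where Ddx58 is low, toward 0. For STING over cGAS (Tmem173 over Mb21d1) the log2 ratio was 2.37 ± 0.50 in cDC1_WT and 4.22 ± 0.38 in cDC2_WT. It is not given for the pDC groups, where Mb21d1 was near the added 1. For the kinases, Tbk1 over Ikbke, the log2 ratio was 3.02 ± 0.70 in pDC_TG and 3.02 ± 0.68 in pDC_WT, and it is not given for the cDC groups, where Ikbke was at or near 0.

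**Figure D3:**
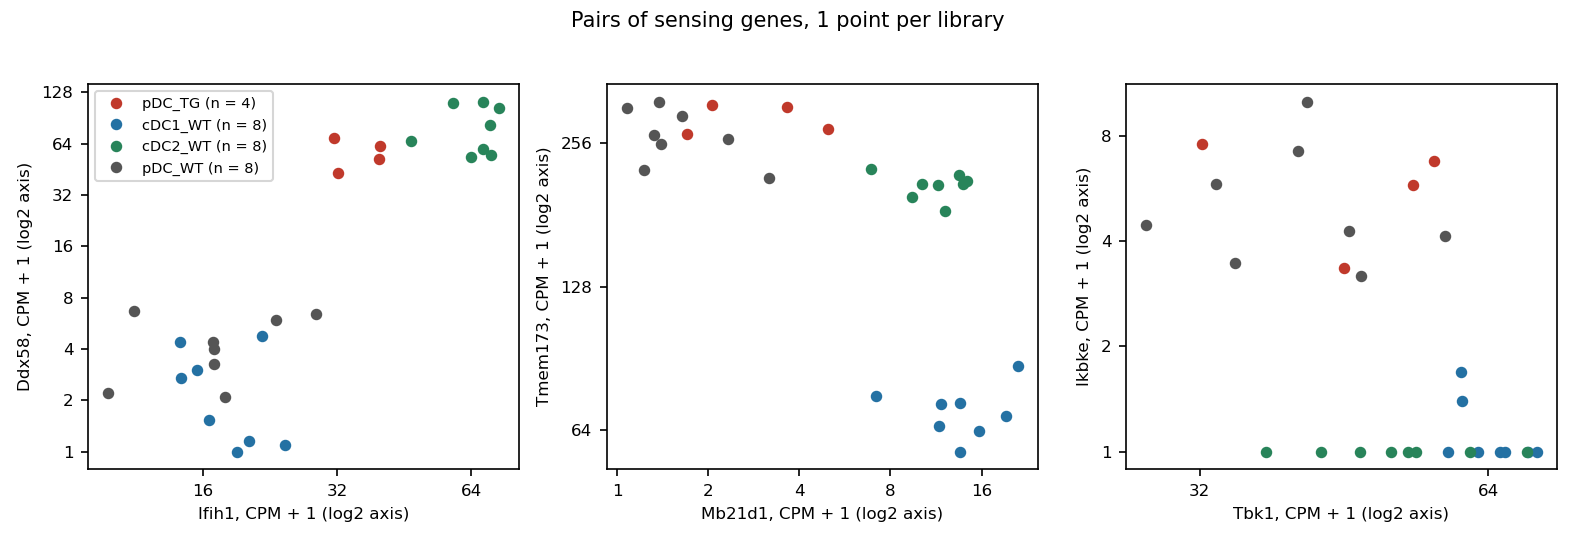
Levels of Ddx58 against Ifih1, Tmem173 against Mb21d1 and Ikbke against Tbk1 (CPM + 1, log2 axes), 1 point per library for pDC_TG, cDC1_WT, cDC2_WT and pDC_WT. In the first panel pDC_TG libraries stand at 41.9 CPM of Ddx58 or more, near cDC2_WT and apart from pDC_WT and cDC1_WT; in the last panel all 8 cDC2_WT libraries lie at 0 CPM of Ikbke.

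The comparisons among WT cells ask how the sensing machinery differs between dendritic cell types, and those against pDC_WT share its libraries. Same-numbered WT libraries resembled each other slightly, which the main fit ignores, and results with a replicate block are given at the end. In cDC1_WT against pDC_WT, cGAS and TBK1 were higher, and STING and IKK epsilon lower. Of the 10 genes, 3 were higher and 5 lower, against 30.6% and 30.3% of all genes tested. Scaling by total counts alone changed the higher share of all called genes to 36.6%, against 50.3% with TMM. Mb21d1 had a log2 fold change of 4.26 (SE 0.47, adjusted p = 3.70e-09), Tbk1 of 0.66 (adjusted p = 0.000108) and Dhx58 of 0.57 (adjusted p = 0.000279). Libraries of the 2 cell types did not overlap for Mb21d1 and Tbk1. Tmem173 fell by 1.93 on the log2 scale (SE 0.08, adjusted p = 9.46e-19) and Ikbke by 4.96 (SE 0.93, adjusted p = 7.22e-05), both without overlap. Mavs fell by 0.44 (adjusted p = 0.0184), Azi2 by 0.36 (adjusted p = 0.0216) and Ddx58 by 1.19 (SE 0.50, adjusted p = 0.0419), all with overlapping libraries. Ifih1 (0.05, 95% interval -0.31 to 0.40) and Traf3 (-0.10, 95% interval -0.48 to 0.27) were not called. The call of Ddx58 was lost in 6 alternative fits, and without cDC1_WT replicate 2, 3, 4, 5 or 7 or pDC_WT replicate 2, 4, 5 or 6, with adjusted p of up to 0.163. Those of Mavs (0.326) and Azi2 (0.152) were lost within WT replicates 5 to 8, that of Azi2 also within WT replicates 1 to 4 (0.0784), and without pDC_WT replicate 3 for Mavs (0.0503) and cDC1_WT replicate 2 (0.0569) or pDC_WT replicate 5 (0.0574) for Azi2.

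Against pDC_WT, cDC2_WT had more of all 3 RNA sensors and of cGAS, and no detected IKK epsilon. All 10 genes were called, 6 higher and 4 lower, against 28.8% and 28.3% of all genes tested. The higher share of all called genes was 40.6% with total-count scaling, against 50.4% with TMM. Ddx58 was higher by a log2 fold change of 4.56 (SE 0.51, adjusted p = 9.14e-09), Mb21d1 by 3.93 (adjusted p = 1.64e-08), Ifih1 by 1.94 (adjusted p = 6.93e-11) and Dhx58 by 1.16 (adjusted p = 4.33e-09). Libraries did not overlap for Ddx58, Mb21d1, Ifih1 and Dhx58, and the share of all genes without overlap was not computed. Traf3 was higher by 0.69 (adjusted p = 0.00191) and Tbk1 by 0.35 (SE 0.14, adjusted p = 0.0298). Ikbke was at least 277-fold lower in cDC2_WT, taken against 3 counts over the group (adjusted p = 7.36e-07). Mavs fell by 0.55 (adjusted p = 0.00369), Azi2 by 0.53 (adjusted p = 0.00123) and Tmem173 by 0.35 (adjusted p = 0.000370). The call of Tbk1 was lost with scaling by total counts (0.195, adjusted p = 0.251) and without cDC2_WT replicate 1 or 2 or pDC_WT replicate 3, 4 or 8 (adjusted p 0.0583 to 0.0877). The calls of Traf3 and Azi2 were lost within WT replicates 1 to 4, and those of Tmem173 and Tbk1 within WT replicates 5 to 8.

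In cDC1_WT against cDC2_WT the RNA sensors and STING were lower, and cGAS was not called. Of the 10 genes, 1 was higher and 5 were lower, against 22.8% and 23.4% of all genes tested. With total-count scaling 41% of all called genes were higher, against 49.4% with TMM. Ddx58 fell by 5.75 on the log2 scale (SE 0.55, adjusted p = 6.49e-10), Ifih1 by 1.89 (adjusted p = 2.14e-10) and Dhx58 by 0.59 (adjusted p = 0.000321). Tmem173 fell by 1.58 (SE 0.08, adjusted p = 2.79e-16) and Traf3 by 0.79 (adjusted p = 0.000649). Libraries of Ddx58, Ifih1 and Tmem173 did not overlap, while the calls of Dhx58 (adjusted p = 0.0795 with WT replicates 5 to 8) and Traf3 (0.190 with WT replicates 1 to 4) were lost in 1 alternative each. Ikbke was called higher in cDC1_WT (adjusted p = 0.00424), at least 8.64-fold against the floor, but this rests on its 2 cDC1_WT libraries with counts, and an exact two-sided permutation test gave p = 0.467. Mb21d1 (0.34, 95% interval -0.49 to 1.16), Mavs (0.12, -0.21 to 0.44) and Azi2 (0.17, -0.10 to 0.45) were not called. Tbk1, at 0.32 (95% interval 0.04 to 0.59), had an adjusted p of 0.0575, and it was called without cDC2_WT replicate 1 (adjusted p = 0.0190) or 2 (0.0421) or pDC_WT replicate 3 (0.0443). In a fit of these 2 groups alone its adjusted p was 0.0299, and an exact two-sided permutation test gave p = 0.00793, not adjusted.

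Set against the cDC groups, pDC_TG had more STING and IKK epsilon and less cGAS than either, and more of all 3 RNA sensors than cDC1_WT. These comparisons share the pDC_TG libraries with the first one. Against cDC1_WT, 5 of the 10 genes were higher and 2 lower, against 27.1% and 26.6% of all genes tested. Of all called genes, 66.5% were higher when scaled by total counts alone, against 50.5% with TMM. Ddx58 was higher by 5.23 (SE 0.57, adjusted p = 6.43e-09), Ikbke by 5.13 (SE 1.00, adjusted p = 0.000127), Tmem173 by 2.05 (adjusted p = 8.52e-18), Ifih1 by 1.01 (adjusted p = 0.000106) and Dhx58 by 0.61 (adjusted p = 0.00116). Mb21d1 fell by 2.66 (SE 0.57, adjusted p = 0.000231) and Tbk1 by 0.47 (adjusted p = 0.0194). Without pDC_TG replicate 4 the Tbk1 value was -0.32 (adjusted p = 0.137) without replicate 3 it was -0.44 (adjusted p = 0.0559), with WT replicates 1 to 4 -0.41 (adjusted p = 0.0992), and with scaling by total counts -0.18 (adjusted p = 0.413). Azi2, not called at 0.11 (adjusted p = 0.612), was called with total-count scaling at 0.40 (adjusted p = 0.0402). Mavs, not called at 0.43 (adjusted p = 0.0579), was called with total-count scaling at 0.72 (adjusted p = 0.00171), in a fit of these 2 groups alone (adjusted p = 0.0148), and at adjusted p of 0.0274 to 0.04998 without pDC_TG replicate 2, cDC1_WT replicate 4, cDC2_WT replicate 2 or 7 or pDC_WT replicate 8. Traf3, not called at -0.51 (adjusted p = 0.0609), was called without pDC_TG replicate 3 at -0.90 (adjusted p = 0.00116) and without cDC1_WT replicate 8 at -0.58 (adjusted p = 0.0354).

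Against cDC2_WT, 3 of the 10 genes were higher in pDC_TG and 3 lower, against 24.3% and 23.9% of all genes tested. Here total counts alone gave 63.2% higher among all called genes, against 50.5% with TMM. Ikbke was at least 312-fold higher against 3 counts over the cDC2_WT group (adjusted p = 1.40e-06), Mavs higher by a log2 fold change of 0.55 (adjusted p = 0.0184) and Tmem173 by 0.47 (adjusted p = 0.000157). Mb21d1 fell by 2.32 (SE 0.56, adjusted p = 0.000999), Traf3 by 1.30 (adjusted p = 3.40e-05) and Ifih1 by 0.88 (adjusted p = 0.00123). Libraries did not overlap for Mb21d1, Traf3, Ifih1, Ikbke and Tmem173, and the share of all genes without overlap was not computed. Ddx58 was not called, at -0.52 with a 95% interval of -1.64 to 0.60, nor was Dhx58, at 0.02 with an interval of -0.29 to 0.34. Tbk1 (-0.16, -0.50 to 0.18) and Azi2 (0.28, -0.06 to 0.61) were also not called, although Azi2 was with total-count scaling (0.47, adjusted p = 0.0172). The call of Mavs was lost without pDC_TG replicate 3 (0.47, adjusted p = 0.0772) and with WT replicates 1 to 4 (0.32, adjusted p = 0.151).

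The other genes of the pathway were followed in 7 lists, chosen with earlier results of these data known. Their counts stand beside 7.72% higher and 7.04% lower over all genes tested in pDC_TG against pDC_WT. In pDC_TG against pDC_WT, 3 of 20 regulators of the RNA sensors were higher and 2 lower, with a median log2 fold change of 0.02. Ddx60, a helicase reported to assist RIG-I, stood at 41.5 CPM in pDC_TG, against 1.71 CPM in pDC_WT (log2 fold change 4.59, SE 0.57, adjusted p = 8.64e-07). Its libraries did not overlap, and in cDC1_WT and cDC2_WT it averaged 0.262 and 35.5 CPM. Pcbp2, which promotes degradation of MAVS, was higher by 0.50. Prkra, the activator of the kinase PKR, fell to 12.1 CPM in pDC_TG, against 24.5 CPM in pDC_WT, and Cyld, a deubiquitinase, fell by 0.48 on the log2 scale. Trim25, a ubiquitin ligase of RIG-I, was not called (-0.21, adjusted p = 0.204).

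Of 20 genes that regulate STING or carry its ligand, 19 were tested, and 2 were higher and 2 lower in pDC_TG than in pDC_WT (median log2 fold change -0.11). Usp18, a deISGylase that is itself interferon-stimulated, averaged 231 CPM in pDC_TG and 155 CPM in pDC_WT (0.57, adjusted p = 0.00266), and the autophagy kinase gene Ulk1 was higher by 0.78. Usp20, a deubiquitinase, fell by 0.94. Of 20 partners of the kinase complex, 3 were higher and 1 lower (median -0.07). Ppm1b, a phosphatase, was higher by 0.39 and Ikbkb, a kinase of the NF-kB pathway, by 0.35, while Tnfaip3, the inhibitor A20, averaged 275 CPM in pDC_TG and 475 CPM in pDC_WT (-0.79, adjusted p = 0.00398). Tbkbp1, a TBK1 adaptor, was called higher (adjusted p = 0.0406) at 0.385 CPM in pDC_TG and 0.0692 CPM in pDC_WT, with overlapping libraries. Tank, the adaptor related to AZI2, was not called (-0.21, adjusted p = 0.394).

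Among 12 transcription factors downstream, 1 was higher and 2 were lower (median 0.01). Nfkb1, the p50 subunit gene of NF-kB, averaged 533 CPM in pDC_TG and 176 CPM in pDC_WT (log2 fold change 1.60, SE 0.12, adjusted p = 1.41e-11). Irf5 averaged 143 CPM in pDC_TG and 318 CPM in pDC_WT (-1.16), and Irf1 202 CPM in pDC_TG and 360 CPM in pDC_WT (-0.83). Irf3, the direct substrate of TBK1, was not called, at 63.7 CPM in pDC_TG and 67.1 CPM in pDC_WT (95% interval of the log2 fold change -0.31 to 0.16). Irf7, its partner in pDC, was at 676 CPM in pDC_TG and 630 CPM in pDC_WT (-0.15 to 0.35). Of 26 other cytosolic sensors and nucleases, 2 were higher and 2 lower (median 0.06). Zbp1, a sensor of Z-form nucleic acid, averaged 42.0 CPM in pDC_TG and 12.96 CPM in pDC_WT (1.70), and Xrcc6, the Ku70 gene, was higher by 0.60. Trex1, the exonuclease that degrades cytosolic DNA, averaged 256 CPM in pDC_TG and 425 CPM in pDC_WT (-0.73), and Ifi204 fell by 1.29.

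Interferon-stimulated genes, a list chosen with earlier results of these data known, had the most calls. Of these 24 genes, 14 were higher in pDC_TG and 2 lower, against 7.72% and 7.04% of all genes tested. Their median log2 fold change was 0.77, against 0 for all genes. The summed level of the 24 overlapped, at 2909 to 3405 CPM in pDC_TG and 2701 to 3567 CPM in pDC_WT. A large part of this sum is Bst2, also a pDC marker, which averaged 743 CPM in pDC_TG and 1156 CPM in pDC_WT. Oas3, an oligoadenylate synthetase gene, averaged 48.7 CPM in pDC_TG and 7.35 CPM in pDC_WT (2.73, adjusted p = 7.36e-09), and Oas1a 74.9 CPM in pDC_TG and 12.9 CPM in pDC_WT (2.54). Xaf1 was higher by 1.63 and Rtp4 by 6.59. Of 12 interferon and chemokine outputs, 5 were tested and 1 was higher (median 0.81). Ccl5 averaged 0.897 CPM in pDC_TG and 0.183 CPM in pDC_WT (2.22, adjusted p = 0.00164), a low level beside the 22.5 CPM of cDC1_WT and 202 CPM of cDC2_WT. Tnf, at -1.24 (unadjusted p = 0.0374), was not called. Interferon transcripts themselves were near 0: Ifnb1 had 7 counts in pDC_TG, from 1 library, and 49 counts in pDC_WT, and Ifna4 had none in any of the 28 libraries, which allows a level of up to 0.00428 CPM over all of them (3 counts).

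**Figure D4:**
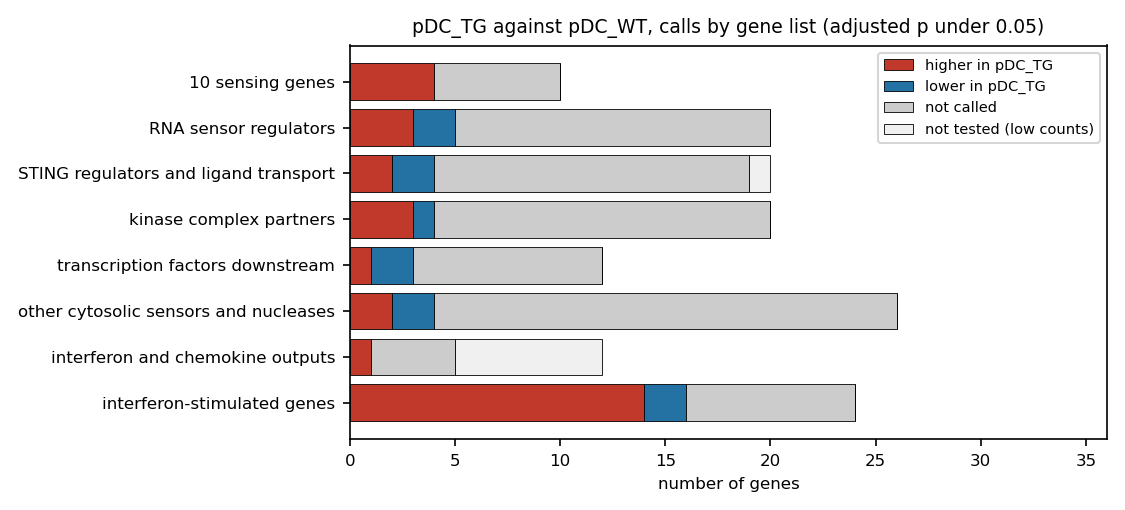
Number of genes higher in pDC_TG, lower in pDC_TG, not called and not tested for low counts, for the 10 sensing genes and 7 further lists of the pathway (horizontal bars, adjusted p under 0.05 over all genes tested, pDC_TG against pDC_WT). The interferon-stimulated list holds 14 higher and 2 lower genes, and no other list has more than 4 higher.

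The same lists were counted between WT cell types, and part of the counts is given here. In cDC1_WT against pDC_WT, where 30.6% of all genes tested were higher and 30.3% lower, 18 of 24 interferon-stimulated genes were lower (median -1.20), and 11 of 19 STING regulators were lower and 1 higher. Bst2, itself a pDC marker, averaged 38.2 CPM in cDC1_WT and 1156 CPM in pDC_WT, and Irf7 184 CPM in cDC1_WT and 630 CPM in pDC_WT. Tbkbp1 averaged 13.8 CPM in cDC1_WT and 0.0692 CPM in pDC_WT. Of 5 interferon and chemokine outputs tested, 5 were higher in cDC1_WT and 0 lower (median 6.35). Among them, Cxcl9 averaged 337 CPM in cDC1_WT and 0.151 CPM in pDC_WT. In cDC2_WT against pDC_WT, with 28.8% of all genes higher and 28.3% lower, 12 interferon-stimulated genes were higher and 7 lower (median 0.37), and 8 of 12 transcription factors were higher and 3 lower. Relb averaged 681 CPM in cDC2_WT and 70.6 CPM in pDC_WT, and Tank 157 CPM in cDC2_WT and 55.2 CPM in pDC_WT. The 5 outputs tested were again all higher (median 6.37), and 11 of 19 STING regulators were lower and 3 higher. In cDC1_WT against cDC2_WT, with 22.8% of all genes higher and 23.4% lower, 16 interferon-stimulated genes were lower and 2 higher (median -1.39). Ddx60 averaged 0.262 CPM in cDC1_WT and 35.5 CPM in cDC2_WT, and Nfkb1 85.0 CPM in cDC1_WT and 538 CPM in cDC2_WT. Of the 5 outputs tested, 1 was higher and 1 lower, and of 19 STING regulators 7 were higher and 5 lower.

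Across the 28 libraries, Pearson's r of log2(CPM + 1) was used to find the genes most like each member among the other genes with a mean of at least 5 CPM in a group (9852, or 9853 for Ikbke, which is itself below that level). Genes that failed the low-count filter, and those with names that start with Gm or end in Rik, were left out. The libraries fall into 4 separate groups and these values mostly follow the group means, so they are given as a description. Ddx58 was most like Oas3 (0.955), Ddx60 (0.953) and St3gal2 (0.951). Ifih1 was most like Pglyrp2 (0.928), Acp5 (0.924) and Stap1 (0.917), and Dhx58 most like Zbp1 (0.894), Bank1 (0.889) and Cd22 (0.869). For the DNA arm, Mb21d1 was most like Tmpo (0.950), Ifngr1 (0.947) and Zfp366 (0.945), and Tmem173 most like Itgb3 (0.985), Cybb (0.984) and Ctsa (0.981). Ikbke was most like Ly6g5b (0.967), B3galt5 (0.956) and Prr13 (0.955). The closest genes stood further away for Mavs, with AI837181 (0.774), Pip4k2c (0.757) and Rpusd2 (0.756), and for Tbk1, with Fbxo10 (0.809), Rexo4 (0.793) and Arhgap18 (0.791). So they did for Traf3, with Arl8b (0.828), Cyld (0.796) and Bbs9 (0.795), and for Azi2, with Agbl3 (0.724), Mbtps2 (0.715) and Arfgap3 (0.707). Among the 10 genes, the highest values were those of Ddx58 with Ifih1 (0.859), Ifih1 with Dhx58 (0.781) and Mb21d1 with Tbk1 (0.729). The lowest were those of Mb21d1 with Ikbke (-0.866), Mb21d1 with Tmem173 (-0.690) and Tmem173 with Tbk1 (-0.680).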

How the data were processed

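Total RNA of sorted spleen dendritic cells (4 ng) was amplified by the SMART-Seq v4 protocol and sequenced as single 75 bp reads on 2 flow cells, per the labels' protocols. FastQC 0.11.4, Trimmomatic 0.35, TopHat2 2.1.0, SAMtools 0.1.18 and build mm10 are named per the submitters' processing notes; the counter and its gene models are not given in the sources used here. Whole-number counts were deposited by the authors for each gene, with 5 summary lines that were left out (no-feature reads 8.23% to 18.7%, ambiguous reads 1.04% to 1.57%). No libraries of a group agreed within sampling noise.

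R 4.3.3 with edgeR 4.0.16 was used: TMM scaling, filterByExpr by group (minimum count 10, total 15), 1 robust quasi-likelihood fit of all 28 libraries, two-sided tests of 6 comparisons and Benjamini-Hochberg adjustment over 13159 genes. CPM are counts over the TMM-scaled library size, and gene length is the union of annotated exons (GENCODE M21). Floors of 3 counts cover counting error only. The share of all genes whose libraries do not overlap was not computed for any comparison, so overlap is given as a description. Alternatives were other scalings, filters and sample sets, DESeq2 1.42.0, a replicate block, leaving out each library, and exact permutation tests. Reads carry no molecular identifiers, so PCR duplicates count as reads.

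The 10 genes and the lists were chosen with earlier results of these data known. Named genes are the 10 genes, Irf8, genes drawn from the up to 4 members per list and comparison with the smallest adjusted p, and the 3 genes most like each member; Irf3, Irf7, Tank, Trim25, Tnf, Ifnb1 and Ifna4 were added after their values were seen. A gene that this rule names is not reported here. Lists of B and plasma cell (130 to 195 CPM in pDC_TG, 89.2 to 148 CPM in pDC_WT), monocyte and macrophage (2853 to 3609 CPM in pDC_TG, 2366 to 3191 CPM in pDC_WT) and erythroid markers (at most 0.345 CPM in pDC_TG, 0.485 CPM in pDC_WT) were also summed.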

Additional observations from a re-analysis of the deposited data

Results flagged for a closer look

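In 39 sets of libraries (each of the 10 genes in each group, where not all were 0), 1 library stood apart from the rest of its group by Dixon's criterion: Azi2 in cDC1_WT replicate 2, at 29.3 CPM, against 48.3 to 63.8 CPM in the other 7 cDC1_WT libraries. Chance gives such a library in about 1 in 20 sets. Without it, the lower Azi2 level in cDC1_WT than in pDC_WT was a log2 difference of -0.26 (adjusted p = 0.0569), and is no longer called.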

How the results depend on the processing

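Of the 41 calls among 60 tests of the 10 genes, 28 were kept under all alternatives run, Ddx58, Ifih1 and Dhx58 in pDC_TG against pDC_WT among them. The shares of all genes called stand with each comparison above, and the share of those calls kept was not computed. No permutation test was run for pDC_TG against the cDC groups. The count of genes lower in pDC_TG than pDC_WT was 0 to 1 with a library left out. In cDC1_WT against pDC_WT, 3 genes were lower with WT replicates 1 to 4, 2 with WT replicates 5 to 8, and 3 to 5 with a library left out. For cDC1_WT against cDC2_WT, 3921 of all genes were called with WT replicates 1 to 4, against 6085, and 0 of the 10 genes were higher with WT replicates 5 to 8 and 1 to 2 with a library left out. In pDC_TG against cDC1_WT, 1 gene was lower with total counts alone, 1 with WT replicates 1 to 4, and 1 to 3 with a library left out. Scaling by total counts moved the median log2 fold change of all genes to 0.03 in pDC_TG against pDC_WT, -0.28 in cDC1_WT against pDC_WT, -0.16 in cDC2_WT against pDC_WT, -0.11 in cDC1_WT against cDC2_WT, 0.30 in pDC_TG against cDC1_WT and 0.21 in pDC_TG against cDC2_WT. The causes were not tested.

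Values that turned sign were all of genes not called. In pDC_TG against pDC_WT, Mavs was 0.0405 with total counts, 0.248 with WT replicates 5 to 8, 0.0175 in the permutation test and -0.0901 to 0.0556 with a library left out; Tmem173 was -0.0258 with WT replicates 1 to 4; Ikbke was -0.002 to 0.42 with a library left out. In cDC1_WT against pDC_WT, Ifih1 was -0.20 with total counts, -0.18 with WT replicates 5 to 8 and -0.0406 to 0.191 with a library left out, and Traf3 was 0.042 with WT replicates 1 to 4. In cDC1_WT against cDC2_WT with WT replicates 1 to 4, Mavs was -0.0584 and Azi2 -0.0904. Azi2 in pDC_TG against cDC1_WT was -0.0413 with WT replicates 5 to 8 and -0.0103 to 0.243 with a library left out. In pDC_TG against cDC2_WT, Dhx58 was -0.115 with WT replicates 1 to 4 and -0.0288 to 0.0826 with a library left out, and Tbk1 was 0.0405 with total counts.

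Same-numbered WT libraries resembled each other: their deviations from the group means correlated at 0.03 to 0.11 over 24 WT pairs. These values were small, but the own number was the highest in 22 of the 24. Over the 4 pairs of pDC_TG and pDC_WT they were -0.03 to 0.04, with the own number highest in 0. The labels do not say what same-numbered libraries share. The main fit has no replicate block, so its p-values between WT groups ignore this likeness. The block also links pDC_TG libraries to same-numbered WT libraries, which come from mice of another genotype. With the replicate block, 1053 genes were higher and 989 lower in pDC_TG than in pDC_WT, and 2 of the 10 genes were higher in cDC1_WT than in cDC2_WT. The block gave an Ikbke value of -0.46 in pDC_TG against pDC_WT and a Dhx58 value of -0.00779 in pDC_TG against cDC2_WT. With it, Ddx58 in cDC1_WT against pDC_WT (adjusted p = 0.0575) and Mavs in pDC_TG against cDC2_WT (0.0773) were no longer called, and Tbk1 in cDC1_WT against cDC2_WT (0.00936) and Traf3 in pDC_TG against cDC1_WT (0.0435) were.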
